A study of Mus musculus with 8 samples.

Results

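The 10 genes described here code for cell surface proteins that set where neurites of inner retinal neurons run and how cell bodies of 1 type are spaced. They were taken by name from the deposited table: *Dscam*, *Dscaml1*, *Sdk1*, *Sdk2*, *Sema5a*, *Sema6a*, *Plxna2*, *Plxna4*, *Megf11* and *Fat3*, 10 of the 17500 genes listed. Whole retinas of 4 *Rbfox2-/-* and 4 control mice of C57BL/6J background were sequenced as poly(A)-selected RNA, 1 library per mouse, at an age of 6 months. The *Rbfox2-/-* mice, labelled Rbfox2 KD, were *Rbfox2* fl/fl with a tamoxifen-dependent Cre transgene, and the controls were heterozygous *Rbfox2* fl/+ mice of the same age. The labels give 4 months of tamoxifen for every mouse, and the methods do not say whether the controls carried Cre or were given the drug. Cre was induced in adults, when the retinal layers are already formed, and the values are from whole retina, in which fewer cells of a type and less RNA per cell cannot be told apart.

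In the inner plexiform layer (IPL), bipolar cells and amacrine cells (ACs) contact retinal ganglion cells (RGCs) in stacked sublaminae, and recognition proteins on their surfaces keep each arbor in its stratum. The immunoglobulin proteins Dscam, Dscaml1 and the sidekicks are homophilic, each binding its own kind, and transmembrane semaphorins act as ligands of plexin receptors. Megf11 and Fat3 act on cell spacing and on the shape of AC dendrites. Rbfox2, an RNA-binding protein that recognizes the sequence (U)GCAUG in introns and 3′ UTRs, is made in RGCs, horizontal cells and GABAergic ACs, some of the cells in which these recognition genes are used.

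The mice are called M893, M901, M902, M909 (*Rbfox2-/-*) and M833, M894, M896, M898 (control), and where 4 values per group are listed below they stand in this order. Libraries held between 160630226 and 211283591 counted fragments. Levels are given as CPM (counts relative to the TMM-normalized library size) for comparisons between mice, and as the deposited FPKM (fragments relative to gene length and library size) for comparisons between genes. *Rbfox2* ranged from 53.6 to 59.4 CPM in *Rbfox2-/-* and from 144 to 157 CPM in control retinas, so that every library fell on the side of its label. M901 and M902 stood apart on the first principal component (40.5% of the variance), and M909 on the second (19.2%). M901 and M902 were also the only libraries with much *Xist* RNA, 275967 to 277506 counts against 312 to 426 in the other mice. Both are *Rbfox2-/-* mice and no control shared this trait, so that it is partly confounded with genotype. Defining markers of every retinal class were present. The summed CPM of marker lists overlapped between *Rbfox2-/-* and control mice for ACs (1425 to 1521 and 1471 to 1552), RGCs (904 to 1196 and 717 to 1165), bipolar cells (1543 to 1638 and 1598 to 1734), horizontal cells (374 to 385 and 374 to 405), rods (59911.5 to 65462 and 57949.7 to 62247), microglia (32.6 to 40.7 and 38.1 to 41.6), vessels (222 to 285 and 242 to 272) and ciliary or pigment epithelium (41.8 to 130.3 and 61.3 to 107). The groups were apart for cones (921 to 1045 and 858 to 864), Müller glia (3949 to 4151 and 4215 to 4545) and lens or surface epithelium (2.57 to 26.6 and 1.37 to 2.32). None of these separations held without the most abundant gene of its list. Cone sums overlapped without *Opn1sw* (496 to 575 and 471 to 529), and Müller glia sums without *Glul* (968 to 1068 and 969.9 to 1027). Lens sums overlapped without *Krt5* (1.31 to 3.33 and 0.967 to 2.11), which was at 24.7 CPM in M909. The cone shift was not confined to *Opn1sw*. Of 6 cone markers, 4 had an unadjusted p under 0.05 in the quasi-likelihood test described below, against 13.3% of all genes. After adjustment none passed. *Opn1sw*, *Pde6c* and *Cnga3* were higher (log2 fold change 0.26, 0.23 and 0.14) and *Opn1mw* was lower (-0.23). The part of these shifts in the values below was not tested.

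The sequence that Rbfox2 recognizes, in its form with the first U, was looked for in the 3′ UTRs of the 10 genes. The shorter form without the first U was not searched. For each gene the transcript with the longest coding sequence was used (GENCODE M21, GRCm38). The DNA letters TGCATG were searched on the transcript strand only, because the protein binds RNA. The letters occurred 16 times in 36723 bases and in 7 of the 10 genes: 4 times in *Plxna4*, 3 times each in *Megf11* and *Fat3*, 2 times each in *Dscam* and *Sema5a*, and 1 time each in *Dscaml1* and *Plxna2*. *Sdk1*, *Sdk2* and *Sema6a* had none in their 3′ UTRs of 3411, 4416 and 943 bases. Of 14700 tested genes with an annotated 3′ UTR, 32.3% held the letters, but their UTRs were shorter (median 946 bases, against 3914 for the 10 genes). Per kilobase, the 10 genes had 0.436 occurrences and all these genes 0.361. A match is a description of the sequence and not a binding site. The occurrences in *Megf11*, which had 1 of the 2 lowest p-values below, and in the paralogues *Dscam* and *Dscaml1* are shown with 10 bases on each side, 5′ to 3′ on the transcript strand, the searched letters in capitals. The first 2 of *Megf11* start 8 bases apart, so that each window also holds the whole of the other occurrence, in small letters.
Megf11, site 1, plus strand, chr9:64708247-64708272: acatgaatgcTGCATGtgtgcatgga
Megf11, site 2, plus strand, chr9:64708255-64708280: gctgcatgtgTGCATGgaagcgagcc
Megf11, site 3, plus strand, chr9:64708512-64708537: tcccctacccTGCATGtacaataact
Dscam, site 1, minus strand, chr16:96592742-96592767: ttctacaaagTGCATGgggactcatt
Dscam, site 2, minus strand, chr16:96592408-96592433: tgcctttattTGCATGtctactgata
Dscaml1, plus strand, chr9:45753581-45753606: tcagagacacTGCATGcgattttact

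Per length, *Dscaml1* was the most abundant of the 10 genes, with 38.8 ± 3.51 FPKM in *Rbfox2-/-* and 40.0 ± 1.88 FPKM in control retinas (SD, n = 4 each). *Plxna2* followed with 15.2 ± 0.861 and 15.8 ± 0.582 FPKM (SD, n = 4 each), and *Plxna4*, another receptor of the same family, was the least abundant with 2.64 ± 0.180 and 2.66 ± 0.144 FPKM (SD, n = 4 each). Between them lay, in falling order of the mean over all 8 mice, *Dscam* (9.36 FPKM), *Sema6a* (8.99), *Sema5a* (7.52), *Megf11* (6.77), *Fat3* (5.93), *Sdk2* (5.14) and *Sdk1* (3.49). The median over all 16797 genes tested was 6.84 FPKM. The 10 genes lay on both sides of it, from 2.65 FPKM for *Plxna4* to 39.4 FPKM for *Dscaml1*. *Dscaml1*, *Plxna2*, *Sdk1* and *Plxna4* each kept their place in all 8 mice, without overlap with either neighbour in the order. *Dscam* exceeded *Sema6a* in 5 of 8 mice, with overlapping ranges. The ranges also overlapped for the neighbours *Sema5a* and *Megf11*, *Megf11* and *Fat3*, and *Fat3* and *Sdk2*. Within a mouse, the first of each of these later pairs was the higher in 7 of 8 mice. Farther apart in the order, *Sema5a* (6.55 to 8.03 FPKM) and *Megf11* (6.23 to 7.93) lay wholly above *Sdk2* (4.70 to 5.67), and *Sema6a* lay above *Sema5a* in 8 of 8 mice. The order of the sidekicks, with *Sdk2* above *Sdk1*, held in 8 of 8 mice.

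**Figure D1:**
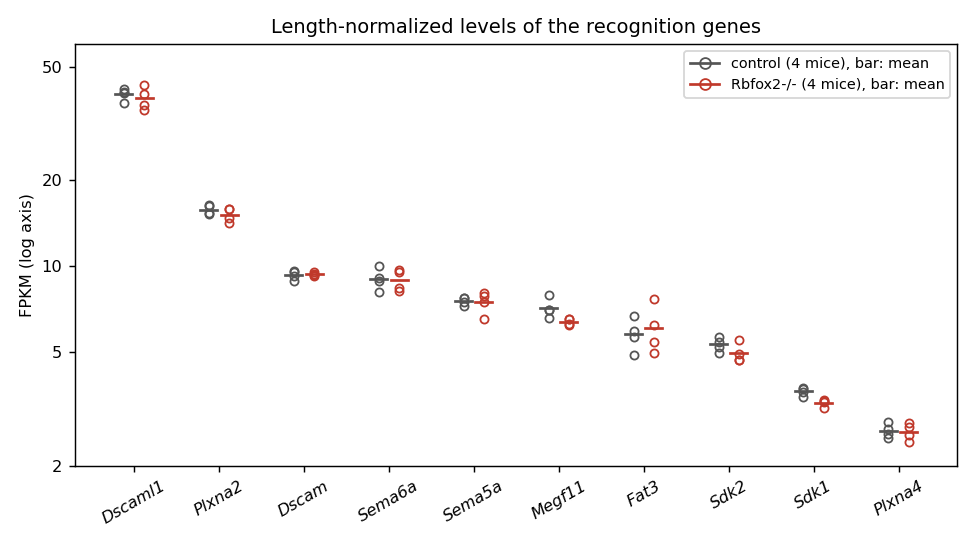
Deposited FPKM of the 10 recognition genes (log axis) in each control (grey) and Rbfox2-/- (red) retina, with short bars at the group means, ordered by the mean over the 8 mice. Levels fall from about 39.4 FPKM for Dscaml1 to 2.65 FPKM for Plxna4, and the groups lie side by side for most genes.

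All 10 genes passed the count filter, and none of them changed past the threshold: 0 of 10 reached an FDR (Benjamini-Hochberg adjusted p over 16797 genes) under 0.05 in the quasi-likelihood test of edgeR, which called 0.0655% of all genes tested and 0.0298% as lower. DESeq2, which called 2.74% of all genes, limma-voom (0.0655%) and the likelihood ratio test of edgeR (0.976%) also called 0 of 10. *Sdk1* and *Megf11*, both lower in *Rbfox2-/-* retinas, had an unadjusted p under 0.05. This is 2 of 10, where 6.87% of all genes had such a p and were lower, and 6.42% had one and were higher. In CPM, no member separated all *Rbfox2-/-* from all control mice, against 7.03% of all genes (3.39% with *Rbfox2-/-* lower). Of the 10 log2 fold changes, 5 were above and 5 below 0, and their median was -0.01 against 0.00 for all genes tested. The counts behind these values ranged from 4379 to 60543 per gene and mouse, so that counting error was at most 1.51% of a value, and the coefficient of variation between mice of a group was 1.78% to 19.7%. For *Megf11* and *Sdk1* in *Rbfox2-/-* retinas these were close, with a variation of 1.81% and 2.73% and a counting error of up to 1.29% and 1.51%. The 95% intervals of the difference, taken from the same fit, reached from -16.5% (*Megf11*) to 30.9% (*Fat3*), and a larger change of any of the 10 genes lies outside its interval.

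**Figure D2:**
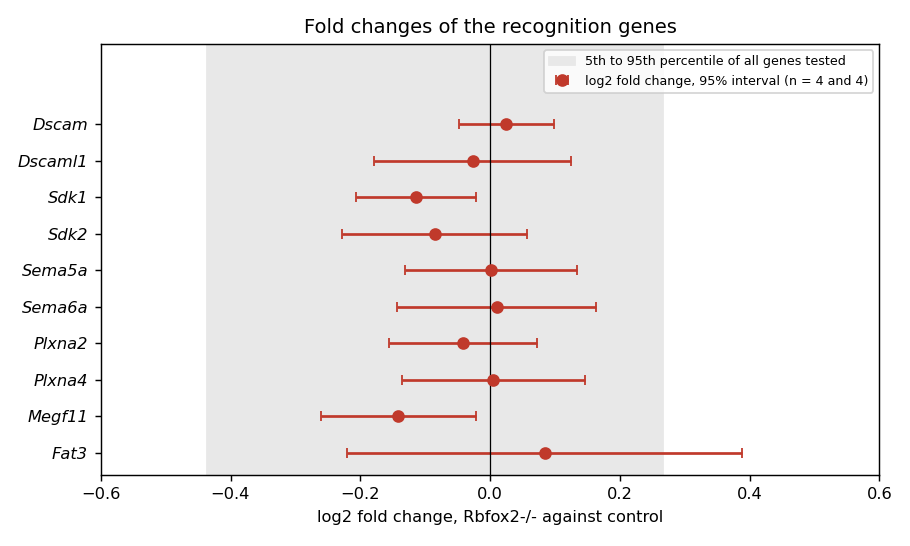
Log2 fold change of each recognition gene in Rbfox2-/- against control retinas (points) with its 95% interval (bars, n = 4 and 4 mice), and the 5th to 95th percentile of all 16797 genes tested (grey band, -0.44 to 0.27). The intervals of Sdk1 and Megf11 lie below 0, that of Fat3 is the widest, and none of the 10 genes passed an FDR of 0.05.

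The Dscam proteins mediate self-avoidance, by which arbors and cell bodies of 1 type keep apart. *Dscam* (chr16:96590840-97170752, minus strand, GRCm38) was measured at 69.3, 72.2, 70.1 and 71.0 CPM in the *Rbfox2-/-* retinas and at 67.7, 71.1, 70.9 and 67.9 CPM in the control retinas. All 8 values lay within a few CPM of each other and the groups overlapped. The log2 fold change was 0.02 (SE 0.033, with an edgeR adjusted p = 0.786), with an interval of the difference from -3.29% to 7.02%, the narrowest of the 10 genes. *Dscaml1* (chr9:45426628-45753712, plus strand), used in the rod pathway, was measured at 241, 256, 280.4 and 299 CPM in the *Rbfox2-/-* retinas and at 291, 277, 276 and 253 CPM in the control retinas. The *Rbfox2-/-* mice spanned the control range on both sides, with M893 below and M909 above every control. Its log2 fold change was -0.03 (SE 0.068, with an edgeR adjusted p = 0.901), with an interval from -11.7% to 9.08%. 4833428L15Rik lies on the opposite strand and overlaps *Dscaml1*, other antisense genes overlap *Dscam* and *Plxna4*, and whether the counting used strand is not given in the sources used here, so that reads of these partners cannot be told apart.

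The sidekicks bind their own kind across the synapse and direct RGC and interneuron arbors to shared sublaminae. *Sdk1* (chr5:141241490-142215586, plus strand) was measured at 28.2, 29.3, 27.6 and 29.0 CPM in the *Rbfox2-/-* retinas and at 31.4, 31.5, 31.3 and 29.2 CPM in the control retinas. Of the *Rbfox2-/-* mice, 3 of 4 were below every control, and M901 lay just above control M898, which itself was far below the other controls. *Sdk1* had a log2 fold change of -0.11 (SE 0.042), a difference of -7.58% with an interval from -13.3% to -1.45%. Its unadjusted p was 0.0210 and its edgeR adjusted p 0.300, so that *Sdk1* did not pass. Without M901 and M902 the log2 fold change was -0.11 and the adjusted p 0.859. Without M898 it was -0.14, with an adjusted p of 0.427. *Sdk2* (chr11:113776374-114067046, minus strand) was measured at 30.8, 32.9, 31.4 and 36.8 CPM in the *Rbfox2-/-* retinas and at 36.3, 37.0, 32.6 and 34.0 CPM in the control retinas. M893 and M902 were below every control, and M909 was near the highest control. The log2 fold change of *Sdk2* was -0.09 (SE 0.064, with an edgeR adjusted p = 0.593), with an interval from -14.6% to 4.03%. Without M909 it was -0.14, with an adjusted p of 0.224, and it was -0.05 without M893 (adjusted p 0.777), without M901 and M902 (0.983) or with 1 surrogate variable (0.991), and -0.06 without control M894 (0.783).

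Of the semaphorin ligands, Sema5a helps to keep neurites of inner retinal cells inside the IPL. *Sema5a* (chr15:32244810-32696341, plus strand) was measured at 80.1, 86.1, 71.7 and 87.4 CPM in the *Rbfox2-/-* retinas and at 82.2, 82.8, 82.8 and 77.4 CPM in the control retinas. The *Rbfox2-/-* mice were spread wider than the controls, with M902 below and M901 and M909 above all of them. The means, 81.3 ± 7.15 and 81.3 ± 2.63 CPM (SD, n = 4 each), were close, with a log2 fold change of 0.00 (SE 0.060, with an edgeR adjusted p = 0.995) and an interval from -8.71% to 9.73%. *Sema6a* (chr18:47235598-47368870, minus strand), the ligand of both plexins described next, was measured at 65.4, 67.7, 57.3 and 58.4 CPM in the *Rbfox2-/-* retinas and at 56.8, 68.0, 62.1 and 60.1 CPM in the control retinas. Every *Rbfox2-/-* mouse lay within the control range. For *Sema6a* the log2 fold change was 0.01 (SE 0.069, with an edgeR adjusted p = 0.965), with an interval from -9.42% to 11.97%.

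Plexin A2 acts with Sema6a in the arbors of starburst ACs, and plexin A4 with Sema6a in the choice of sublamina. *Plxna2* (chr1:194618218-194816869, plus strand) was measured at 155, 178, 164 and 176 CPM in the *Rbfox2-/-* retinas and at 182, 166, 178 and 166 CPM in the control retinas. M893 and M902 were below every control and the other *Rbfox2-/-* mice were among them. Its log2 fold change was -0.04 (SE 0.051, with an edgeR adjusted p = 0.764), with an interval from -10.2% to 5.13%. Without M893 it was -0.0043, and with each other mouse left out in turn it lay between -0.07 (without M901) and -0.02 (without M833). *Plxna4* (chr6:32144268-32588192, minus strand) was measured at 32.1, 34.8, 30.8 and 35.8 CPM in the *Rbfox2-/-* retinas and at 36.3, 33.5, 32.2 and 31.1 CPM in the control retinas. The groups covered nearly the same range. The log2 fold change of *Plxna4* was 0.01 (SE 0.063, with an edgeR adjusted p = 0.982), with an interval from -8.95% to 10.6%.

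Megf11 acts, with Megf10, in the regular spacing of horizontal cells and starburst ACs. *Megf11* (chr9:64385626-64709205, plus strand) was measured at 39.05, 38.4, 38.0 and 39.5 CPM in the *Rbfox2-/-* retinas and at 42.9, 39.2, 41.8 and 46.9 CPM in the control retinas. The *Rbfox2-/-* mice lay close together, 3 of 4 of them below every control, while the controls were spread and M894 fell among the *Rbfox2-/-* mice. The means were 38.7 ± 0.702 and 42.7 ± 3.22 CPM (SD, n = 4 each). *Megf11* had a log2 fold change of -0.14 (SE 0.054), a difference of -9.33% with an interval from -16.5% to -1.52%. Its unadjusted p was 0.0248 and its edgeR adjusted p 0.317, so that *Megf11* did not pass. M898 had the highest value. Without M898 the log2 fold change was -0.09, with an adjusted p of 0.597. Without M901 and M902 it was -0.12, with an adjusted p of 0.905. On the deposited FPKM scale, the highest *Rbfox2-/-* values of *Megf11* (6.54 FPKM) and of *Sdk1* (3.40) lay below the lowest control values (6.59 and 3.49), so that 2 of 10 members then separated the groups, against 6.73% of all genes (3.8% with *Rbfox2-/-* lower). *Megf10*, the paralogue on the other side of this pair, had a log2 fold change of 0.04 (edgeR adjusted p = 0.887).

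Fat3 is an atypical cadherin by which ACs lose the neurite that points away from the IPL. *Fat3* (chr9:15910189-16501285, minus strand) was measured at 91.1, 116, 102 and 142 CPM in the *Rbfox2-/-* retinas and at 125, 109, 103 and 88.7 CPM in the control retinas. It varied more between mice of 1 genotype than any other of the 10 genes, M909 was above all controls, and M893 and M898 were lowest. For *Fat3* the log2 fold change was 0.08 (SE 0.14, with an edgeR adjusted p = 0.832), with an interval from -14.2% to 30.9%. Without M909 it was -0.05, so that its direction rested on this mouse.

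**Figure D3:**
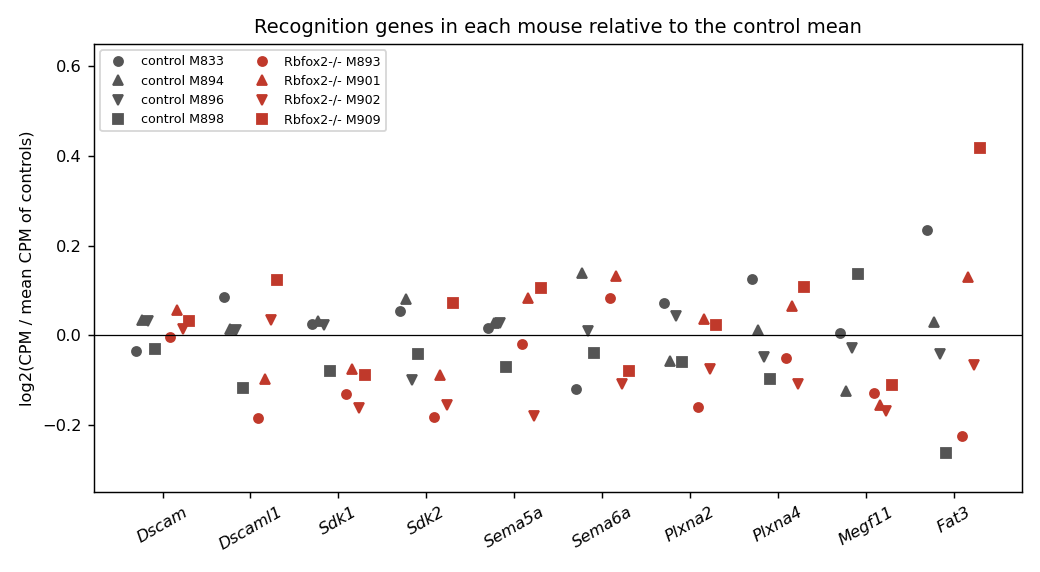
Log2 of each mouse's CPM over the mean CPM of the 4 controls, for the 10 recognition genes, with controls in grey and Rbfox2-/- mice in red and 1 symbol per mouse. The Rbfox2-/- values of Sdk1 and Megf11 all lie below 0 but meet the lowest control, and Fat3 is spread the most.

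The 10 genes differed from each other in their spread between mice. Among 6033 genes with a mean between 29.7 and 272 CPM, the range of these 10 genes, the within-group standard deviation of log2 CPM had a median of 0.065. That of *Fat3* was 0.24, at percentile 98.8, and that of *Dscam* was 0.033, at percentile 6.13. *Sdk1* was also below the median of these genes (percentile 22.7), and *Dscaml1*, *Sema6a*, *Sdk2*, *Plxna4* and *Sema5a* lay between percentiles 80.7 and 87.5. *Dscaml1*, *Plxna4* and *Fat3* shared an order at its top: M909 and M833, from different groups, had the highest CPM for all of them. The same mice had the lowest RGC marker sums of their groups, 904 CPM in M909 and 717 CPM in M833. Whether this bears on the shared order was not tested. M893 was below the control mean for 9 of 10 genes, M902 for 8, M901 for 4 and M909 for 3, and of the controls M898 was below it for 9 and M833 and M894 for 2 each. Both groups thus held mice with mostly low and mice with mostly high values of these genes.

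Ratios within a mouse, which do not depend on library scaling, were compared for paralogues and for ligands with their receptors. Since CPM is not corrected for length, only the shift of a ratio between mice can be read from it, and not its level. The log2 ratio of *Dscam* to *Dscaml1* was -1.92 ± 0.13 in *Rbfox2-/-* and -1.98 ± 0.088 in control retinas (SD, n = 4 each). That of *Sdk1* to *Sdk2* was -0.21 ± 0.093 and -0.18 ± 0.081 (SD, n = 4 each), so that the sidekicks kept their proportion within the spread between mice. The log2 ratio of *Sema6a* to *Plxna4* was 0.90 ± 0.14 and 0.89 ± 0.17, and that of *Sema6a* to *Plxna2* was -1.44 ± 0.15 and -1.49 ± 0.16 (SD, n = 4 each). For *Plxna2* to *Plxna4* the values were 2.33 ± 0.063 and 2.38 ± 0.076, and for *Sema5a* to *Sema6a* 0.39 ± 0.13 and 0.40 ± 0.10 (SD, n = 4 each). For all 6 ratios the groups overlapped and the means differed by less than the standard deviation of either group. *Sema6a* relative to either plexin was lowest in M833 and M909.

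**Figure D4:**
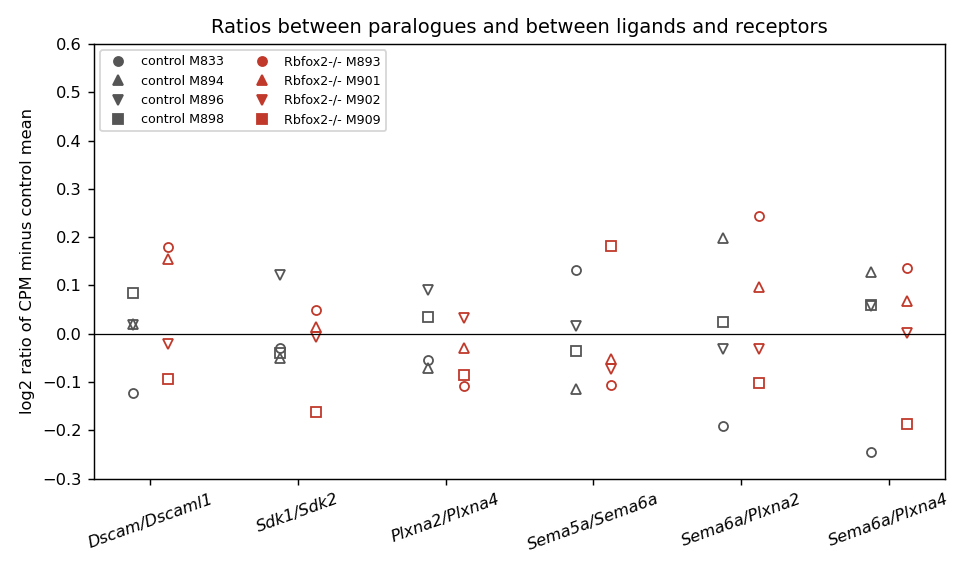
Log2 ratio of CPM between 2 recognition genes within each mouse, minus the mean of the 4 controls, for 4 pairs of related genes and 2 pairs of a ligand with its receptor (controls grey, Rbfox2-/- red, 1 symbol per mouse). Rbfox2-/- and control mice overlap for all 6 ratios, and the group means differ by at most 0.055.

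The recognition genes shared a large size. Of the 10, 8 spanned at least 200 kb of the genome on GENCODE M21, against 5.90% of 16008 tested genes that could be located, and their median span was 386 kb against 23.1 kb. The largest was *Sdk1*, with 974 kb. The 945 tested genes of at least 200 kb had a median log2 fold change of -0.04 in *Rbfox2-/-* retinas, and the 10 recognition genes one of -0.01.

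Other adhesion and guidance genes were compared as 8 lists, of which 128 of 130 genes were tested. The quasi-likelihood test called none of them in either direction, against 0.0655% of all genes. An unadjusted p under 0.05 was found for 13 of 128 (10.2%), against 13.3% of all genes. Limma-voom also called 0 of them, against 0.0655% of all genes, and DESeq2 called 1 of 128, against 2.74% of all genes. Of the 128 genes, 96 were below 0 and 32 above, with a median log2 fold change of -0.05, whereas 8288 of all 16797 genes were below 0. Between 82 and 100 of them were below 0 under every alternative in which all 128 were tested, and with 1 surrogate variable there were 82. Their median span was 118 kb, and 40 of the 128 spanned at least 200 kb. Whether span bears on the fold changes of these genes or of the recognition genes was not tested.

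Of 18 other semaphorins, 15 were below 0, with a median log2 fold change of -0.11. The lowest p belonged to *Sema3g*, a secreted semaphorin, with a log2 fold change of -0.33 (edgeR adjusted p = 0.276), and to *Sema4c* with -0.15 (edgeR adjusted p = 0.294). Of 9 other plexins and neuropilins, the receptors of semaphorins, 7 were below 0 (median -0.12), led by *Nrp1* with -0.24 (edgeR adjusted p = 0.381), which was -0.14 without M901 and M902 and -0.06 with 1 surrogate variable. *Plxnb3*, with -0.71 (edgeR adjusted p = 0.403), was close to the detection limit at 0.0631 and 0.104 CPM. Of 6 other Fat and Dachsous cadherins, *Fjx1* and *Megf10*, 5 were below 0 (median -0.17), led by *Dchs1*, a binding partner of Fat proteins, with -0.19 (edgeR adjusted p = 0.302) and *Fjx1* with -0.15 (edgeR adjusted p = 0.477). Without M901 and M902, *Dchs1* was at -0.10.

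Of 13 contactins and their associated proteins, 11 were below 0 (median -0.07), with the lowest p for *Cntn3* at -0.32 (edgeR adjusted p = 0.337) and *Cntnap2* at -0.09 (edgeR adjusted p = 0.393). *Cntn3* was at -0.13 without M901 and M902 and at -0.10 with 1 surrogate variable. Of 14 teneurins, latrophilins, Flrt and Unc5 genes, 12 were below 0 (median -0.10), led by the latrophilins *Adgrl1* at -0.10 (edgeR adjusted p = 0.284) and *Adgrl2* at -0.10 (edgeR adjusted p = 0.300). The 16 classical cadherins had 13 below 0 (median -0.04), with *Cdh12* and *Cdh22* both at -0.09 (edgeR adjusted p = 0.508 and 0.541). The 19 immunoglobulin adhesion genes were divided, with 10 above and 9 below 0 (median 0.00). *Igsf9*, a member of the family, was at 0.22 (edgeR adjusted p = 0.273; 0.13 without M901 and M902) and *Mdga2*, which masks neuroligins, at -0.14 (edgeR adjusted p = 0.297).

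Of 33 cytoplasmic partners, such as the Magi scaffolds that bind the tails of Dscam and sidekick proteins, the WAVE complex and the Crmp proteins downstream of plexins, 24 were below 0 (median -0.03). *Dpysl4*, a Crmp protein, was measured at 104, 94.4, 97.1 and 101.1 CPM in the *Rbfox2-/-* retinas and between 107 and 115 CPM in the 4 controls. All *Rbfox2-/-* mice were thus below all controls. The groups did not overlap for 8 of the 128 listed genes (6.25%), against 7.03% of all genes (3.39% with *Rbfox2-/-* lower). The log2 fold change of *Dpysl4* was -0.17 (SE 0.039). The adjusted p was 0.155 with edgeR and 0.0104 with DESeq2, and it was the gene that DESeq2 called. Without M901 and M902 the log2 fold change of *Dpysl4* was -0.13 (edgeR adjusted p = 0.782). With 1 surrogate variable it was -0.12 (edgeR adjusted p = 0.699). *Farp2*, a plexin-bound exchange factor, was at 0.16 (edgeR adjusted p = 0.239, 0.0696 from DESeq2). The scaffolds *Magi1*, *Magi2* and *Magi3* were at 0.04, -0.03 and -0.05 (edgeR adjusted p = 0.703, 0.791 and 0.640 from edgeR).

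**Figure D5:**
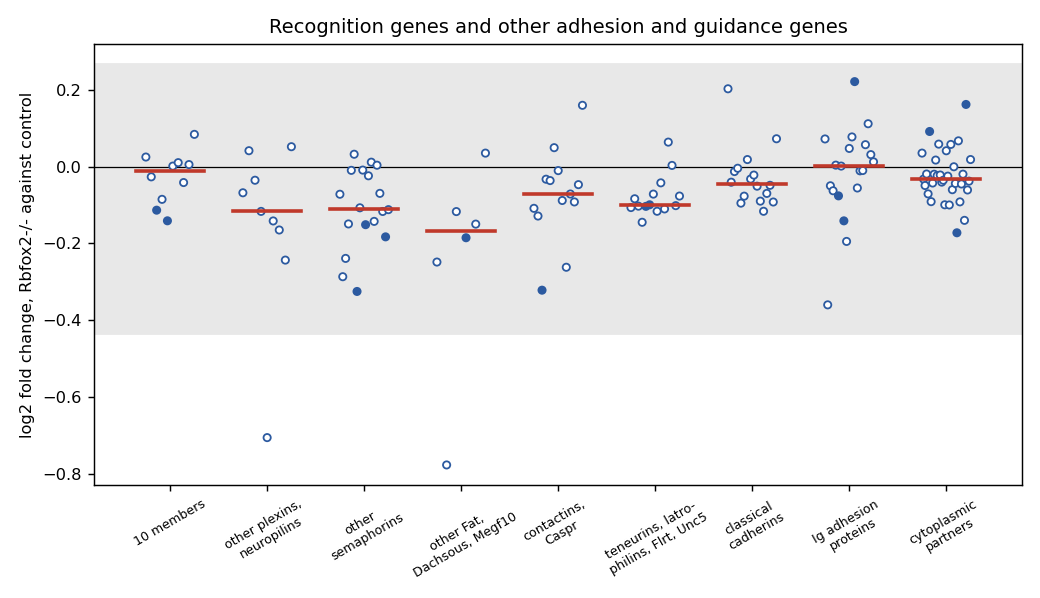
Log2 fold change in Rbfox2-/- against control retinas of the 10 recognition genes and of 8 lists of other adhesion and guidance genes (points, filled where the unadjusted p was under 0.05), with list medians (red bars) and the 5th to 95th percentile of all genes tested (grey band). Medians of 7 of the 8 other lists lie below 0, between -0.17 and -0.03, and the quasi-likelihood test of edgeR called no gene shown.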

How the data were processed

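RNA of 8 whole retinas, 4 per group by the genotype labels, was sequenced by the study with paired reads on a NovaSeq 6000. The authors aligned reads to mouse mm10 with STAR, kept uniquely mapped reads and deposited the counts of fragments per gene (HTSeq) without normalization, together with FPKM, a log2 fold change and p-values of their own comparison, and counts adjusted to library size. The submitters' notes also name CASAVA 1.8.2. Counts were used for all tests and the deposited FPKM, whose gene length is not stated, for levels between genes. The authors' comparison columns and adjusted counts were not used.

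With edgeR 4.0.16 in R 4.3.3, 16797 of 17500 genes passed filterByExpr and were TMM-normalized and compared with the quasi-likelihood test without covariates, with Benjamini-Hochberg adjustment over all genes tested. Standard errors are the log2 fold change over the square root of F, and 95% intervals use the t distribution of the fit. Alternatives were DESeq2 1.42.0, the likelihood ratio test, limma-voom (limma 3.58.1), RLE and upper-quartile scaling, no filter, at least 10 counts in every sample, each mouse left out, M901 and M902 left out, and 1 surrogate variable (sva 3.50.0). The procedure was tested on simulated counts. No 2 libraries agreed within sampling noise. The labels do not say more than that the samples are separate mice. Depth was 160630226 to 211283591 counts per mouse, and counting intervals cover counting error only.

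The members and lists were chosen with earlier results of these data known. Genes named are all members, *Rbfox2*, and from each list those with an FDR under 0.05 and the 2 with the lowest p. *Megf10* and the Magi genes were named in addition, after their values were seen. Older symbols matched 5 listed genes. *Dchs2* and *Nectin2* were not matched. The name of the Cre transgene is not reported here.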

Additional observations from a re-analysis of the deposited data

Results flagged for a closer look

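Of 22 groups of 4 mice examined (the CPM of the 10 recognition genes and of *Rbfox2* in each genotype), 2 held a mouse whose distance to the nearest other mouse, as a share of the range of the group, exceeded Dixon's critical value, where chance gives about 1.1 (1 in 20 groups). Both were control M898. Its *Sdk1* level of 29.2 CPM was below the other controls by 0.917 of their range, and its *Sema5a* level of 77.4 CPM by 0.877 of the range. The cause was not tested.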

How the results depend on the processing

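No recognition gene had an FDR under 0.05 under any of the 17 alternatives, and the lowest adjusted p among them was 0.181 (*Sdk1* with DESeq2). The number with an unadjusted p under 0.05 was 2 in the quasi-likelihood test of all mice. It was 0 without M902, without M901 and M902 or with 1 surrogate variable, 1 with the likelihood ratio test and 3 without M909. *Dscam*, *Sdk1*, *Sdk2*, *Megf11* and *Plxna2* kept their direction throughout, with ranges over all alternatives of 0.01 to 0.04, -0.14 to -0.10, -0.14 to -0.05, -0.18 to -0.09 and -0.09 to -0.0043. With 1 mouse left out at a time, log2 fold changes ranged from -0.0799 to 0.0221 for *Dscaml1*, from -0.0346 to 0.0561 for *Sema5a*, from -0.0338 to 0.0594 for *Sema6a*, from -0.0296 to 0.0471 for *Plxna4* and from -0.046 to 0.174 for *Fat3*, so that these 5 changed sign. *Sema5a* also did with limma-voom (-0.0016) and with upper-quartile scaling (-0.0047), and *Plxna4* with upper-quartile scaling (-0.00037). In the deposited FPKM, a comparison chosen after seeing the data, 2 members separated the groups instead of 0. Of all genes, 11 had an FDR under 0.05, and 460 did with DESeq2, 164 with the likelihood ratio test, 5 with 1 surrogate variable, 1 without M901 and M902 (with 2 *Rbfox2-/-* mice remaining), and 5 to 35 with 1 mouse left out. Of the listed adhesion and guidance genes, DESeq2 called 1 instead of 0. The cause of these shifts was not tested. No paired analysis was possible because the labels give each mouse its own number and no number shared between the groups. Counting error was at most 1.51% for the recognition genes, and whether depth or the number of mice limited the calls was not tested. The marker sums without the most abundant gene were also chosen after seeing the data.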
